A study of Mus musculus with 16 samples.

Results

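The genes described here are 41 genes of DNA replication and S phase, out of 17080 genes tested on mouse arrays of mast cells. They were chosen by name, from the machinery that licenses and fires origins, copies DNA, supplies deoxynucleotides and packs new DNA into chromatin. No rule on measured values was used, but earlier results of these data were known when the genes were chosen. All 41 were found on the array, with Orc1, Orc6, Cdc45 and Gins2 under older names. All 41 passed the filter on dim probes: the probe used for each was well above background on all 16 arrays in both dyes. The cells were bone marrow cells grown for more than 4 weeks in 10% serum with interleukin 3 (5 ng/ml) and stem cell factor (40 ng/ml), which gave cultures of immature mast cells with a stated purity above 90%. Activated cells were loaded with anti-DNP IgE (5 ug/ml) for 1 h and then given the antigen DNP-HSA (100 ng/ml), whereas resting cells had neither, so the effect of antigen below always means IgE and antigen together. Both kinds of cell received, for 2 h or 16 h, either a polyclonal goat agonist antibody against the receptor TIM-3 or control goat IgG (15 ug/ml each). There were 4 groups of 4 arrays, activated and resting cells at 2 h and at 16 h, and every array paired Cy5-labelled RNA of the anti-TIM-3 culture with Cy3-labelled RNA of the IgG culture. The dyes were never exchanged, so within a group the effect of the antibody and the dye bias of a gene cannot be told apart. It drops out, if constant over arrays, of a difference between the ratios of 2 groups. Whether replicates came from separate cultures or animals is not in the labels, so the spread between them may be technical.

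DNA is copied once per cell cycle in S phase. In G1 the origin recognition complex, Cdc6 and Cdt1 load the Mcm2 to Mcm7 helicase onto origins, and in S phase the Cdc7 and Dbf4 kinase, Mcm10, Cdc45 and the GINS complex turn it into a moving fork at which the polymerases work. Many of these genes are transcribed late in G1 under E2F transcription factors, and their mRNA levels are widely used as a sign of how many cells are cycling. Mast cells grown from marrow with interleukin 3 and stem cell factor go on dividing in culture, and IgE with antigen makes them release their granules and transcribe cytokine genes.

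An E2F motif was looked for around the start sites of these genes, because they are textbook E2F targets and moved together here. The motif was TTT, then 2 letters that are each C or G, then CGC, that is TTTCCCGC, TTTCGCGC, TTTGCCGC or TTTGGCGC, on either strand, in windows of 250 bases before to 50 bases after a start site (RefSeq, GRCm38.p6). Windows were found for 35 of the 41 genes, and 13 of the 35 (37.1%) held a match, against 704 of 27025 mouse genes (2.60%). A match is a string of letters and not a measured binding site. The stretches printed here are those of Mcm7 (chr5:138172030-138172059, minus strand), Mcm5 (chr8:75109326-75109397, plus strand), Uhrf1 (chr17:56304117-56304146, plus strand) and Cdt1 (chr8:122568036-122568064, plus strand). They belong to the first genes with a match among those whose values are given below. Capitals mark the matches, read along the gene's own strand. The Cdt1 stretch lies after the start site, at positions 22 to 50 of the transcribed side. In Mcm5 a pair of matches on opposite strands overlap, and in Mcm7 the match shown is on the opposite strand, while a further match (TTTCGCGC, on the gene's own strand, starting at position 17 of the transcribed side) is not shown.
Mcm7: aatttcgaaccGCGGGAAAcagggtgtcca
Mcm5: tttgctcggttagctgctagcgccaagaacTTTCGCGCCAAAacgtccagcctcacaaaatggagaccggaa
Uhrf1: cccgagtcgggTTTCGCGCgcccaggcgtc
Cdt1: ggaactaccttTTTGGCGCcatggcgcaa
The other genes with a match were Orc1, Cdc6, Mcm3, Mcm6, Pola1, Pold1, Rfc3, Lig1 and Dnmt1. In Mcm3, Pold1 and Lig1 the matches lay only after a start site. The median effect of antigen at 2 h in IgG-treated cells was -0.74 on the log2 scale in the 13 genes with a match and -0.70 in the 22 without.

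The share of spots well above background ran to 62.1% at most in Cy3 (lowest 53.7%) and to 67.7% in Cy5 (lowest 54.8%), with 0 saturated spots. Mast cell markers were present throughout: 10 of 10, among them Cpa3, Kit and Fcer1a, were well above background on all 16 arrays in both dyes. Of the other cell types a marrow culture could hold, macrophage and dendritic cell markers varied widely. By log2 Cy3 group means, Lyz2 (14.87 to 15.44) and Clec10a (12.40 to 13.72) were bright. C1qb (6.89 to 7.15) and Mrc1 (6.46 to 7.30) were dim, and C1qa was well above background on 1 array in Cy3 and 3 in Cy5. The summed log2 level of the list in Cy3 lay between 14.80 and 15.87 on activated and 14.88 and 16.03 on resting arrays at 2 h. At 16 h it lay between 14.89 and 16.16 on activated and 15.58 and 16.34 on resting arrays. Of the basophil markers 4 of 4 were above background on all arrays, with Cy3 sums of 14.39 to 14.92 over the groups. By log2 Cy3 group means only Cd200r3 (14.26 to 14.72) was near these sums. Il4 was at 10.27 to 11.86, Mcpt8 at 9.83 to 10.49 and Prss34 at 7.57 to 7.70. Of the 8 neutrophil markers measured, Mpo and S100a9 were above background on all 16 arrays in both dyes, while Elane, Camp and Ngp were on 0 arrays and the other 3 on some. The eosinophil and erythroid sums moved with antigen at 2 h. The eosinophil sum was 10.45 to 10.52 in activated against 8.89 to 9.2 in resting cells, led by Siglecf, and the erythroid sum 10.79 to 10.88 against 9.61 to 9.77, led by Epor. The eosinophil gene Ear1 was above background on 0 arrays. The part of other cells in the results below was not tested. Bulk RNA cannot tell fewer cells in S phase from less of an mRNA per cell.

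Across the arrays the replication genes fell into 4 levels, lowest in activated cells at 2 h and highest in resting cells at 16 h. On the log2 Cy3 scale, which holds IgG-treated cells, the median of the 41 genes was 10.26, 10.10, 10.11 and 10.11 on the 4 activated arrays at 2 h, against 10.82, 10.80, 10.85 and 10.83 on the resting ones. At 16 h it was 11.61, 11.65, 11.66 and 11.64 in activated cells, against 11.99 to 12.06 in resting cells. No array of an activated group reached its resting group, and both 16 h groups lay above both 2 h groups. With anti-TIM-3, in Cy5, the median was 9.78 to 10.00 in activated and 10.59 to 10.70 in resting cells at 2 h, and 11.73 to 11.88 in activated and 12.02 to 12.14 in resting cells at 16 h.

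**Figure D1:**
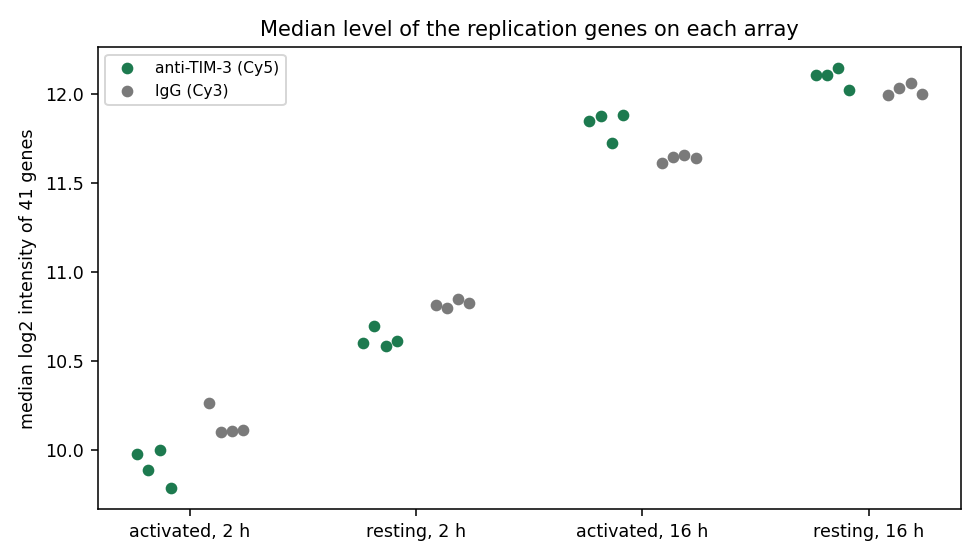
Median log2 intensity of the 41 replication genes on each of the 16 arrays, by group (x axis), with anti-TIM-3-treated cells (Cy5) left of IgG-treated cells (Cy3). Activated arrays lie below resting arrays at each time in each dye, and the 16 h arrays lie above the 2 h arrays.

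Antigen lowered the mRNA of nearly all these replication genes within 2 h in IgG-treated cells. Of the 41 genes 40 fell and 1 rose (limma, Benjamini-Hochberg adjusted p under 0.05 over all genes), where 42.9% of all genes were called, 15.3% higher and 27.6% lower. The median change was -0.71 on the log2 scale, against -0.04 over all genes tested, and the groups did not overlap in 40 of the 41 genes, as in 38.3% of all genes. Slide by slide, where both groups had arrays, the median change was -0.82 and -0.73, with 40 of 41 genes below 0 in each.

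The single largest fall was that of a licensing gene. Mcm7, a subunit of the replicative helicase, had log2 Cy3 levels of 10.77, 10.80, 10.88 and 10.73 in activated cells, against 12.48, 12.33, 12.38 and 12.08 in resting cells. Every activated array lay more than 1 log2 unit below every resting one, and the level fell by 1.52 ± 0.07 (SE), or 2.88-fold (limma, adjusted p = 5.67e-11). Mcm5, another helicase subunit, stood at 10.63, 10.63, 10.69 and 10.57 in activated and at 11.99, 11.69, 11.81 and 11.58 in resting cells. Its groups did not overlap either, and it fell by 1.14 ± 0.07 (adjusted p = 1.92e-09). All 11 licensing genes fell, with a median of -0.80. The smallest fall among them was that of the origin recognition subunit Orc6 (-0.34), while Gmnn, which encodes geminin, the inhibitor of Cdt1, fell by 0.80.

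The 6 genes of origin firing all fell as well. Mcm10, which binds the helicase as it is activated, was at 9.40, 9.0, 8.98 and 9.01 in activated and at 10.56, 10.12, 10.44 and 9.78 in resting cells. Replicate 1 stood apart among the activated arrays, still below all resting ones, and the change was -1.13 ± 0.13 (adjusted p = 2.94e-06). Gins1, a subunit of the GINS complex of the fork helicase, was at 8.08, 8.06, 8.06 and 7.99 against 9.19, 9.09, 9.1 and 8.95, a fall of 1.03 ± 0.05 (adjusted p = 1.02e-10). The kinase gene Cdc7 fell least here (-0.50), and its activating partner Dbf4 fell by 0.79. A dimmer kept probe of Dbf4 was at 0.13 and was not called.

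At the fork itself, the 6 polymerase and primase genes fell by 0.31 (Prim2, a primase subunit) to 1.03 (Pole). Pole, the catalytic subunit of the leading-strand polymerase epsilon, had 8.55, 8.28, 8.31 and 8.21 in activated cells, against 9.31, 9.56, 9.40 and 9.22 in resting cells. Its groups lay well apart (-1.03 ± 0.08, adjusted p = 2.49e-08). Prim1, the catalytic primase subunit, fell by 1.00. Of the clamp loader and single-strand binding genes, Rfc3, Rfc4, Rfc5, Rpa1 and Rpa2 fell by 0.32 to 0.79. Fen1, which trims the flaps of Okazaki fragments, and Lig1, which seals them, fell by 0.61 and 0.72.

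Pcna, the sliding clamp that holds polymerases on DNA, was the exception. It stood at 14.59, 14.69, 14.65 and 14.61 in activated and at 14.60, 14.11, 14.55 and 14.02 in resting IgG-treated cells. Resting replicates 1 and 3 were about level with the activated arrays and replicates 2 and 4 lay below them, so the groups overlap, and the rise of 0.31 ± 0.10 (adjusted p = 0.0212) was not called when only these groups were fitted, with slide as a block, without resting replicate 2 or 4 or activated replicate 2, or without 3 arrays described below. In anti-TIM-3-treated cells it was at 15.01, 15.08, 15.09 and 15.06 in activated against 14.39, 14.46, 14.62 and 14.32 in resting cells. There the groups did not overlap, and Pcna rose by 0.61 ± 0.07 (adjusted p = 2.22e-06).

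The remaining genes, which act behind the fork or feed it, fell too. All 4 genes of deoxynucleotide supply fell, led by the thymidine kinase gene Tk1 (-0.99), with Rrm1 and Rrm2, the subunits of ribonucleotide reductase, at -0.52 and -0.62 and the thymidylate synthase gene Tyms at -0.48. One of 3 probes of Tyms was at 0.00 and not called. Chaf1a, the large subunit of the CAF-1 histone chaperone, had 8.66, 8.59, 8.44 and 8.54 in activated cells, against 9.89, 9.72, 9.76 and 9.70 in resting cells. It fell by 1.21 ± 0.06 (adjusted p = 3.03e-10), and its groups were far apart. The other genes of chromatin, DNA methylation and repair fell by 0.56 (Slbp, which binds the stem-loop of histone mRNA) to 0.99 (Brca1, a repair gene). A dimmer probe of Brca1 was at -0.18.

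**Figure D2:**
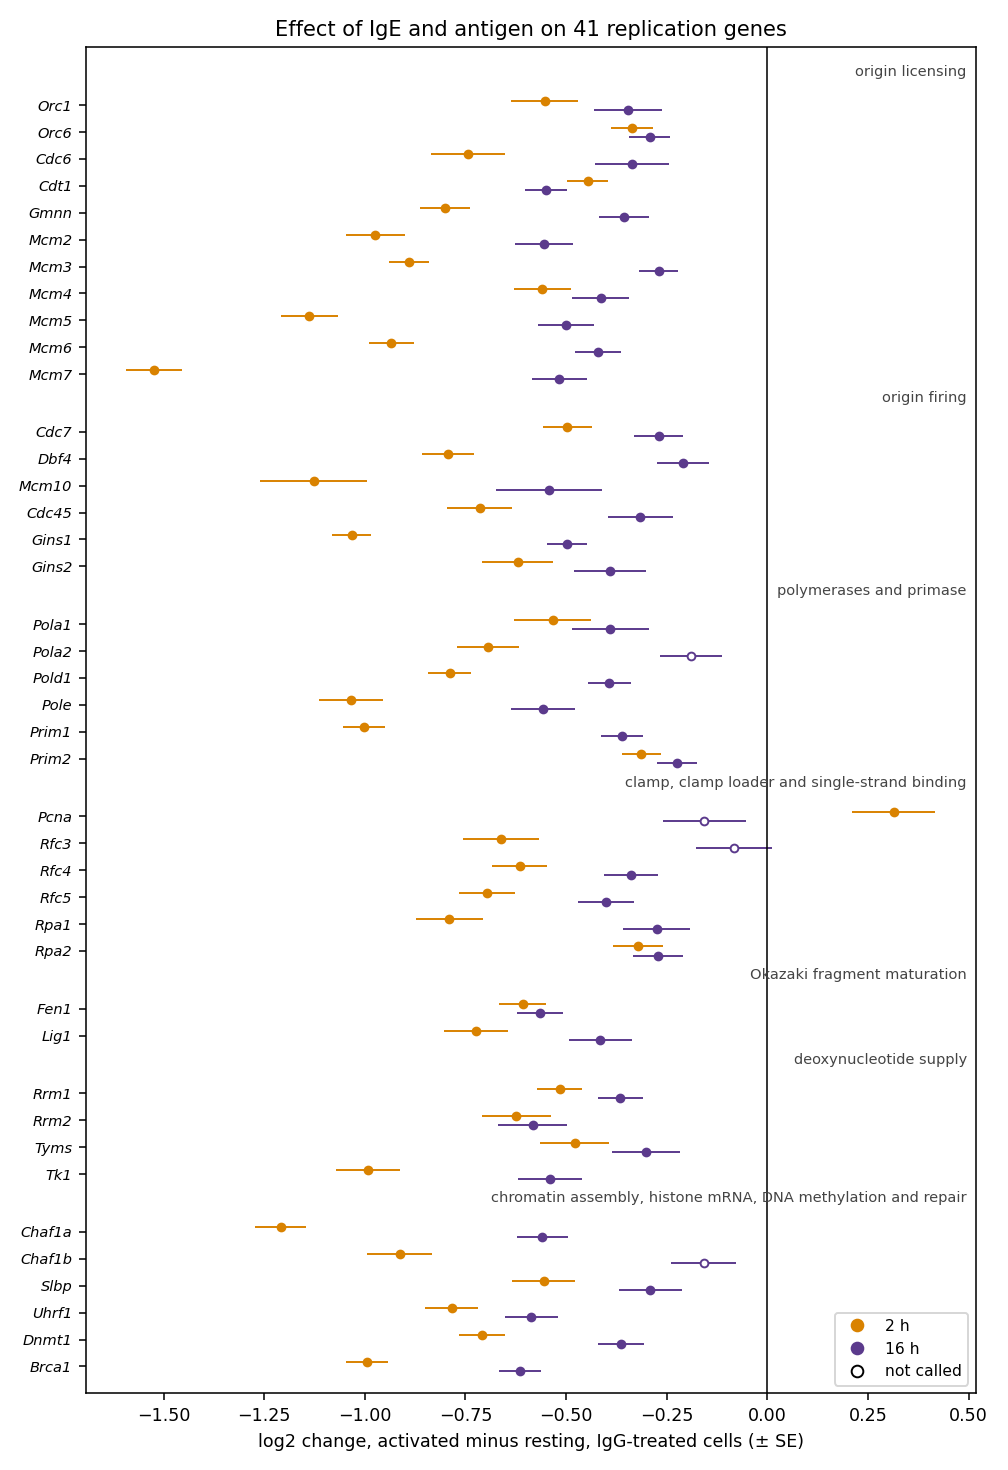
Log2 change with IgE and antigen (activated minus resting, IgG-treated cells, x axis) of each of the 41 genes, grouped by role (y axis), at 2 h (orange) and 16 h (purple). Points are fitted changes with their SE and open points were not called; at 2 h only Pcna lies above 0, and at 16 h most genes lie nearer to 0.

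Related genes outside the 41 moved the same way at 2 h. Of 17 mitosis genes 16 fell and 1 rose (median -1.00), Tpx2, a spindle assembly factor, by 1.37 and the mitotic kinase Plk1 by 1.36. Other licensing and firing genes fell in 16 of 20 (median -0.47), with Dtl, which targets Cdt1 for destruction, at -1.30 and the cyclin A gene Ccna2 at -1.15. Other polymerase, clamp loader and fork genes fell in 13 of 18, other deoxynucleotide genes in 7 of 9 and other chromatin and repair genes in 13 of 15. Among E2F factors and pocket proteins 9 of 12 fell and 2 rose. The pocket protein genes Rbl1 (-1.13) and Rbl2 (-1.02) fell most, and E2f1 fell by 0.94.

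At 16 h the replication genes were still lower in activated than in resting IgG-treated cells, and the change was smaller in size than at 2 h in 40 of 41, all but Cdt1. Of the 41 genes 37 fell, where 12.3% of all genes were called, 5.30% higher and 7.02% lower, and Pola2, Pcna, Rfc3 and Chaf1b were not called. The median change was -0.37, against 0.00 over all genes, and the groups did not overlap in 36 genes, as in 20.8% of all genes. Within slides the median was -0.39 and -0.36.

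Of the 6 genes with the largest fall at 16 h, Chaf1a and Pole were also among the 6 at 2 h. Brca1, which acts in repair of broken DNA by recombination, was at 9.63, 9.54, 9.46 and 9.52 in activated and at 10.19, 10.13, 10.13 and 10.16 in resting cells. It fell by 0.61 ± 0.05, or 1.53-fold (adjusted p = 2.41e-06), and a dimmer probe of it fell by 0.28. Uhrf1, which guides the methyltransferase Dnmt1 to newly copied DNA, was at 12.46, 12.41, 12.47 and 12.34 against 13.13, 12.96, 13.04 and 12.88 (-0.59 ± 0.07, adjusted p = 3.08e-05). For both genes the highest activated array stayed below the lowest resting one.

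Rrm2, the regulated subunit of ribonucleotide reductase, had 10.33, 10.38, 10.37 and 10.41 in activated cells, against 10.84, 11.03, 11.04 and 10.92 in resting cells at 16 h (-0.58 ± 0.08, adjusted p = 0.000288). Fen1 had 10.81, 10.91, 10.89 and 11.00 against 11.32, 11.54, 11.51 and 11.49 (-0.56 ± 0.06, adjusted p = 1.19e-05). Activated and resting arrays did not overlap in either gene. Chaf1a was at 10.43, 10.52, 10.33 and 10.52 against 10.89, 11.08, 11.06 and 11.01 (-0.56 ± 0.06, adjusted p = 3.18e-05), and Pole at 11.02, 11.07, 10.90 and 10.88 against 11.58, 11.47, 11.49 and 11.56 (-0.56 ± 0.08, adjusted p = 0.000248). All 11 licensing genes fell, by 0.27 (Mcm3) to 0.55 (Mcm2). All 6 firing genes fell by 0.21 (Dbf4) to 0.54 (Mcm10). Dimmer probes of Dbf4 (0.01) and of the deoxynucleotide gene Tyms (-0.004) were not called.

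**Figure D3:**
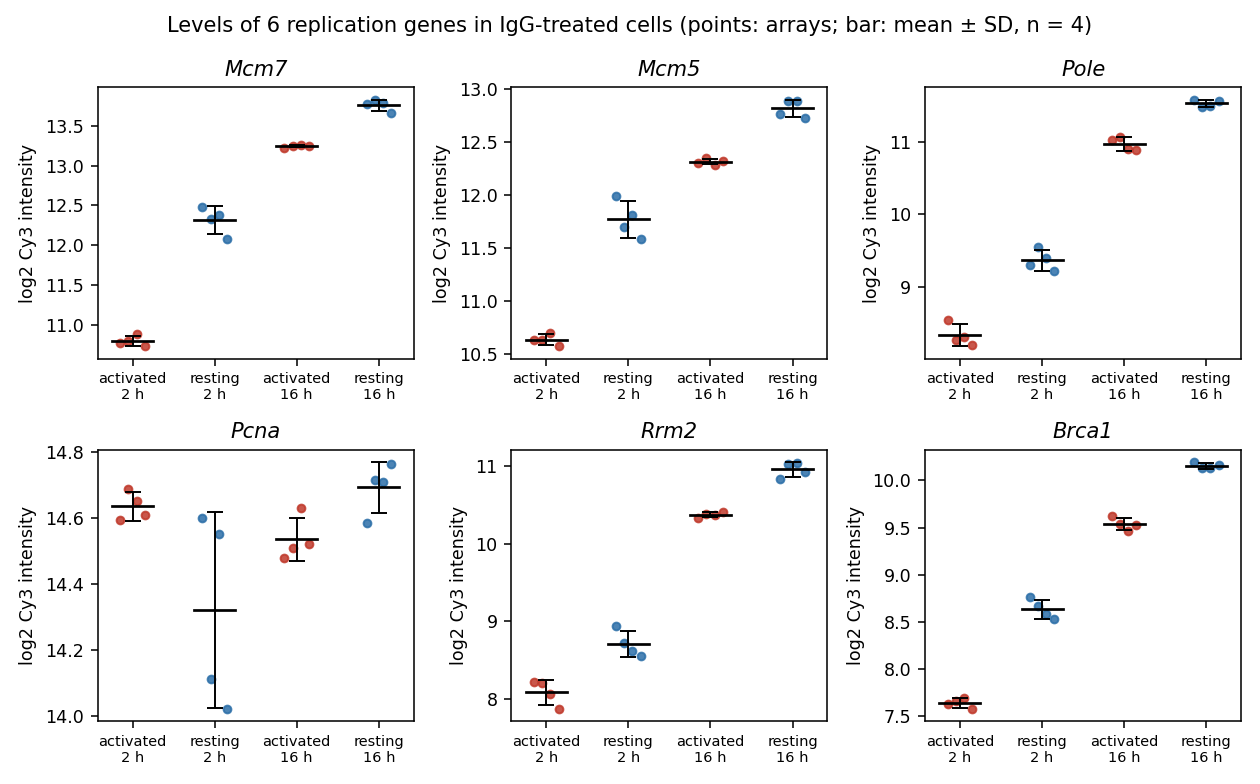
Log2 Cy3 intensity of 6 replication genes in IgG-treated cells (y axis, scaled per gene) in the 4 groups (x axis), with 1 point per array and the mean ± SD of 4 arrays. Mcm7, Mcm5, Pole, Rrm2 and Brca1 are lower in activated than in resting cells at both times, and resting Pcna at 2 h is split between arrays.

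The effect of antigen differed between the times in 26 of the 41 genes, 25 of them with a higher, less negative, effect at 16 h than at 2 h, where 33.4% of all genes were called and 20.6% higher. The median difference was 0.38, against 0.05 over all genes. Mcm7 differed most (1.01 ± 0.10, adjusted p = 9.09e-07), with -0.52 at 16 h against -1.52 at 2 h. Chaf1b, the middle subunit of CAF-1, followed (0.76 ± 0.11, adjusted p = 7.84e-05), with -0.16 at 16 h, where it was not called, against -0.91 at 2 h. Only Pcna ran the other way among the genes called (-0.47 ± 0.15, adjusted p = 0.0198), and it was not called with slide as a block or without the 3 arrays. Rrm2 (0.04), Fen1 (0.04), Orc6 (0.04) and Rpa2 (0.05) had close to the same effect at both times, and Cdt1 was at -0.10, none of them called. Of the deoxynucleotide genes only Tk1 was called (0.45).

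By the median, these genes moved more with time than with antigen. In resting IgG-treated cells all 41 were higher at 16 h than at 2 h, where 46.9% of all genes were called and 24.1% higher, with a median of 1.02 against -0.01 over all genes. The groups did not overlap in 40 genes, as in 41% of all genes, and the median within slides was 0.91 to 1.08. Rrm2 rose by 2.25 ± 0.08 (4.76-fold, adjusted p = 6.33e-12), with the resting levels given above against 8.94, 8.72, 8.61 and 8.55 at 2 h. Tk1 had 11.47, 11.44, 11.41 and 11.30 at 16 h, against 9.38, 9.26, 9.14 and 8.92 at 2 h (2.23 ± 0.08, adjusted p = 3.75e-12). Pole (2.15), Uhrf1 (2.04), Pola1, the catalytic subunit of polymerase alpha (1.95), and Lig1 (1.93) rose by nearly as much. The helicase genes Mcm2 to Mcm7 rose by 0.56 (Mcm3) to 1.44 (Mcm7), and the lowest rises were those of Rpa1 (0.34) and Pcna (0.37). Dimmer probes of Dbf4 (0.01) and Tyms (0.07) were not called, and that of Brca1 rose by 0.41, against 1.52 for its brightest probe.

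In activated IgG-treated cells 40 of 41 genes were higher at 16 h than at 2 h, where 60.1% of all genes were called and 33.9% higher, with a median of 1.41 against 0.04 over all genes. Tk1 rose most (2.68, 6.42-fold), and Pole (2.63), Mcm7 (2.45) and Mcm10 (2.38) followed. Pcna was at -0.10 ± 0.10 (adjusted p = 0.426). Dimmer probes of Dbf4 (-0.11) and Tyms (0.06) were not called, and that of Brca1 rose by 0.32, against 1.90 for its brightest probe. In resting cells the related lists differed in how many of their genes rose with time. Mitosis genes rose in 16 of 17 (median 1.02, Mki67 by 1.64) and E2F and pocket protein genes in 9 of 12 with 2 falls, E2f2 by 2.40. Other licensing and firing genes rose in 15 of 20, other fork genes in 15 of 18 and other chromatin and repair genes in 13 of 15, with 1 fall in each, but other deoxynucleotide genes rose in only 4 of 9 and 1 fell (median 0.23). Antigen lowered the genes at each time, yet every activated array at 16 h had more of Mcm7, Mcm5, Pole, Rrm2 and Brca1 than every resting array at 2 h. The 2 h and 16 h cultures differ in the length of treatment with IgG as well as in time, and these cannot be told apart.

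Ratios of anti-TIM-3 over IgG were small by comparison, mostly below 0 at 2 h and, in activated cells, above 0 at 16 h, although median centring (the median ratio over the spots of an array set to 0, with no loess curve) put most called genes above 0 at 2 h as well. In activated cells at 2 h, 23 of the 41 genes were lower with anti-TIM-3 than with IgG and 1 higher, where 33.3% of all genes were called, 17.1% higher and 16.3% lower. The median log2 ratio was -0.16, and the ratio had the same sign on all 4 arrays in 31 genes, as in 51.0% of all genes. Under median centring the split turned to 18 higher and 1 lower. That scaling puts the median gene itself at 0.22, and the members' median was 0.09, below it. Mcm6, a helicase subunit, had ratios of -0.66, -0.49, -0.48 and -0.64 (-0.57 ± 0.06, adjusted p = 8.53e-07), but its change was -0.01 and not called under median centring. Chaf1a had -0.34, -0.53, -0.31 and -0.53 (-0.43 ± 0.05, adjusted p = 1.63e-05). Gmnn had -0.33, -0.30, -0.24 and -0.38 (-0.31 ± 0.05, adjusted p = 0.000141), and under median centring 0.17, below that scaling's median gene. Pcna was again the exception, with 0.41, 0.40, 0.44 and 0.46 on the 4 arrays (0.43 ± 0.07, adjusted p = 0.000263). It was higher on each array and by nearly the same amount. Its difference from the ratio in resting cells (0.30) was not called. Among the genes called lower here, a dimmer probe of Cdc6 was called higher (0.22). Dimmer probes of Brca1 (-0.08), Gins1 (-0.07) and Uhrf1 (-0.10) were not called, while those of Cdc7 (-0.18), Pold1 (-0.33) and Rpa2 (-0.14) were called lower.

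In resting cells at 2 h, 16 of the 41 genes were lower with anti-TIM-3 and 25 were not called, where 14.0% of all genes were called, 7.06% higher and 6.92% lower. The median ratio was -0.14, and 22 genes had the same sign on all 4 arrays, as did 28.8% of all genes. The count rests on replicate 1 and on the pooled spread: it was 9 without replicate 1 and 2 with only these arrays in the fit, and under median centring 25 genes were higher, with the members' median at 0.16, below the median gene at 0.21. Cdt1, the licensing factor, had ratios of -0.24, -0.23, -0.48 and -0.28 (-0.31 ± 0.05, adjusted p = 0.000296), and Mcm6 had -0.11, -0.24, -0.44 and -0.28 (-0.27 ± 0.06, adjusted p = 0.00418). Mcm7 had -0.33, -0.28, -0.28 and -0.16 (-0.26 ± 0.03, adjusted p = 8.03e-05), and Rpa2, a subunit of the single-strand binding protein, -0.36, -0.14, -0.35 and -0.14 (-0.25 ± 0.06, adjusted p = 0.00779). Each was below 0 on every array under loess, and under median centring each was above 0. Rpa2 was not called without replicate 1. Among the genes called lower here, dimmer probes of Rpa2 (-0.13), Cdc6 (-0.08) and Gins1 (-0.04) were not called. That of Mcm3 was called lower (-0.24), and of the other probes of Tyms one was called lower (-0.20) and one was not called (0.01).

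Activated and resting cells differed little in this respect at 2 h. The difference in ratio was called in 3 of the 41 genes, where 5.58% of all genes were called, 3.59% higher and 1.99% lower, with a median of -0.01. Mcm6 was lower in activated cells by 0.30 (SE 0.08, adjusted p = 0.032), Gmnn by 0.28 (0.07, adjusted p = 0.0257) and Dnmt1, the maintenance DNA methyltransferase, by 0.22 (0.05, adjusted p = 0.0133). Dnmt1 had -0.32, -0.26, -0.27 and -0.37 in activated cells, against -0.02, -0.18, -0.05 and -0.07 in resting cells. In Gmnn and Dnmt1 no activated array overlapped a resting one, and neither did any in Mcm6. These calls are fragile. With 1 array left out, Mcm6 was still called only without replicate 3 of either group, and Gmnn was not called without resting replicate 1 or activated replicate 1, 2 or 4. Without activated replicate 2 limma called 1 gene, and without activated replicate 4 it called 0 of 41, with 11 at an unadjusted p under 0.05. Within the slides that hold both groups, Mcm6 differed by -0.46 and -0.12, Gmnn by -0.40 and -0.18 and Dnmt1 by -0.27 in each.

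In activated cells at 16 h the direction was upward, and 31 of the 41 genes were higher with anti-TIM-3 than with IgG. Over all genes 30.1% were called there and 16.9% were higher. The median ratio was 0.23, against 0.01 over all genes, and 35 genes had the same sign on all 4 arrays, as did 49.7% of all genes. Without 3 arrays, chosen after seeing the data because over 65% of their spots were above background in Cy5 (replicates 1 and 2 of this group and resting replicate 2 at 2 h), 18 of the 41 genes were higher. Under median centring all 41 were higher, with the members' median at 0.83 and the median gene at 0.39. Pcna had ratios of 0.48, 0.60, 0.37 and 0.55 (0.50 ± 0.07, adjusted p = 6.34e-05), and Brca1 had 0.49, 0.47, 0.50 and 0.45 (0.48 ± 0.06, 1.39-fold, adjusted p = 8.32e-06). The difference from the ratio in resting cells, in which a constant dye bias cancels, was not called for Pcna (0.05) or Brca1 (0.21). Rrm2 had 0.57, 0.56, 0.36 and 0.42 (0.48 ± 0.04, adjusted p = 3.27e-07). Tk1 had 0.70, 0.29, 0.55 and 0.29 (0.46 ± 0.05, adjusted p = 8.65e-06), with replicates 1 and 3 above replicates 2 and 4. A dimmer probe was not called in 4 of the genes called here: it was at 0.09 for Brca1, 0.10 for Mcm3, 0.08 for Cdc7 and, for one of 3 probes, -0.01 for Tyms. All 4 deoxynucleotide genes were higher and 10 of 11 licensing genes, Mcm4 most (0.44). Dnmt1 (-0.01), Rpa2 (-0.04) and Dbf4 (0.06) were not called. Macrophage and dendritic cell markers moved here too, with 6 of 9 tested lower and 2 higher (median -0.36), and 7 of 10 mast cell markers were higher and 2 lower (median 0.30). Their part in the result was not tested.

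Other lists followed in activated cells at 16 h: mitosis genes were higher with anti-TIM-3 in 8 of 17 (median 0.19), with Tpx2 at 0.46 and the spindle motor gene Kif11 at 0.45. Of E2F and pocket protein genes 8 of 12 were higher, E2f7 by 0.51 and E2f1 by 0.49. Of other chromatin and repair genes 6 of 15 were called higher and 1 lower, with the checkpoint kinase gene Chek1 at 0.41.

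Resting cells at 16 h gave a mixed picture. Of the 41 genes 11 were higher with anti-TIM-3 and 4 lower, where 21.6% of all genes were called, 11.7% higher and 9.95% lower, and the median ratio was 0.05. The ratio had the same sign on all 4 arrays in 24 genes, as in 39.0% of all genes. Pcna had 0.56, 0.36, 0.62 and 0.26 (0.45 ± 0.07, adjusted p = 0.000594) and Brca1 0.29, 0.21, 0.44 and 0.13 (0.27 ± 0.06, adjusted p = 0.00413), both above 0 on every array. Mcm5 had 0.31, 0.07, 0.35 and 0.10 (0.21 ± 0.06, adjusted p = 0.0161). Uhrf1 went down, with -0.53, -0.20, -0.59 and -0.14 (-0.37 ± 0.09, adjusted p = 0.00928, but 0.18 under median centring), and under loess so did Cdt1 (-0.20), Pole (-0.20) and Chaf1b (-0.19). In Pcna, Brca1, Mcm5 and Uhrf1 replicates 1 and 3 lay farther from 0 than replicates 2 and 4, and without replicate 1 or replicate 3 the count of called genes was 7 and neither Uhrf1 nor Mcm5 was called. With only these arrays in the fit the count was 7, and under median centring 40 genes were higher, with the members' median at 0.51 and the median gene at 0.30. Among the genes called here, dimmer probes were not called for Brca1 (0.03), Cdc6 (-0.02), Mcm3 (0.14), Pold1 (0.11) and Uhrf1 (-0.28).

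Set directly against each other at 16 h, the ratio was higher in activated than in resting cells in 18 of the 41 genes, where 8.58% of all genes were called, 4.71% higher and 3.87% lower. The median difference was 0.21, against 0.00 over all genes, and the groups did not overlap in 19 genes, as in 15.7% of all genes. The dye bias that is common to all arrays cancels here, though the members were also dimmer in activated than in resting cells, by the median levels given above, and the part of brightness in the ratio was not tested. Slide by slide, where both groups had arrays, the median difference was 0.20 and 0.19. Without the 3 arrays above, 7 genes were called. Of the macrophage and dendritic cell markers 4 of 9 were lower and 2 higher in this difference (median -0.34).

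Uhrf1 showed the largest difference, with ratios of 0.26, 0.32, 0.06 and 0.30 in activated cells, against -0.53, -0.20, -0.59 and -0.14 in resting cells. Activated arrays were all above 0 and resting arrays all below, and the difference was 0.60 ± 0.13 (adjusted p = 0.00645), though it was not called without the 3 arrays (0.54). A dimmer probe of Uhrf1 differed by 0.58. Tyms, whose enzyme makes thymidylate, had 0.51, 0.53, 0.21 and 0.46 against -0.06, -0.06, -0.22 and -0.05 (0.53 ± 0.09, adjusted p = 0.00109). Of the other probes of Tyms one differed by 0.52 and one by 0.05, the last not called. Chaf1b had 0.36, 0.32, 0.13 and 0.26 against -0.10, -0.14, -0.35 and -0.18 (0.46 ± 0.07, adjusted p = 0.000427). Both were above 0 on every activated and below 0 on every resting array. Tk1 differed by 0.39 ± 0.08 (adjusted p = 0.00378), with the activated ratios given above against 0.06, 0.01, 0.11 and 0.08 in resting cells. By role, 4 of 4 deoxynucleotide genes, 6 of 11 licensing genes, 2 of 6 firing genes and 2 of 6 polymerase and primase genes were called higher. The lowest differences were those of Rpa1 (-0.02) and Fen1 (-0.00).

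**Figure D4:**
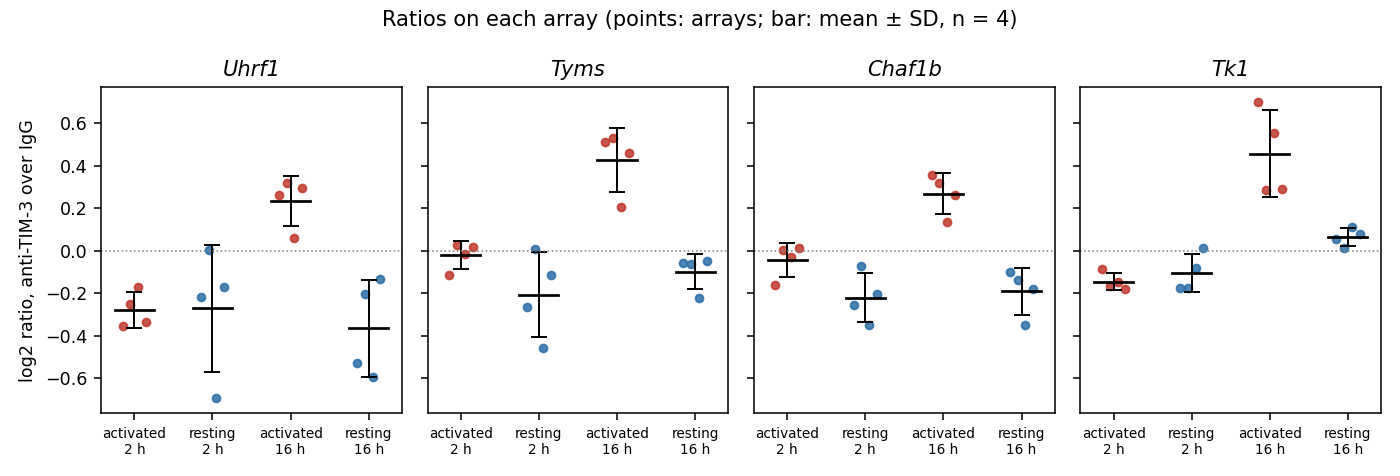
Log2 ratio of anti-TIM-3 over IgG on each array (y axis) for the 4 genes with the largest differences of activated from resting cells at 16 h, in the 4 groups (x axis), with the mean ± SD of 4 arrays. At 16 h every activated array lies above every resting array in each gene.

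The effect of antigen was also fitted in the anti-TIM-3 channel alone at 16 h, which is another comparison than the difference of ratios above. There 14 of the 41 genes were lower in activated than in resting cells and 2 higher, where 19.3% of all genes were called, 9.47% higher and 9.79% lower, with a median of -0.17. The Cy3 and Cy5 values come from the same arrays. With replicate number as a block the counts were 21 lower and 2 higher. Without activated replicate 3 they were 7 lower and 1 higher, without resting replicate 3 they were 8 and 1, and without the 3 arrays above 9 genes were lower. Fen1 had log2 Cy5 levels of 10.99, 11.13, 10.98 and 11.15 in activated cells, against 11.65, 11.54, 11.85 and 11.47 in resting cells, a fall of 0.57 ± 0.09 (adjusted p = 0.00033). Tyms had 13.74, 13.76, 13.71 and 13.69 against 13.46, 13.60, 13.51 and 13.44, a rise of 0.22 ± 0.07 (adjusted p = 0.0312). Chaf1b had 13.81, 13.82, 13.73 and 13.92 against 13.34, 13.53, 13.54 and 13.66, a rise of 0.30 ± 0.07 (adjusted p = 0.00779). In all 3 genes activated and resting arrays did not overlap. At 2 h antigen lowered 40 of the 41 genes in the anti-TIM-3 channel and raised Pcna, where 45.4% of all genes were called and 28.2% lower, with a median of -0.76.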

How the data were processed

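Each of the 16 arrays (45018 spots, 1639 of them controls) held 2 RNA samples. The deposited scanner files give spot and background intensity in each dye and the log10 ratio of Cy5 over Cy3, made with Agilent Feature Extraction 9.1.3.1, per the file headers. The deposited value table holds the same log10 ratio, with a largest difference of 0. It is centred on a median of 0, and 25.2% of its spots are exactly 0. The genome build of the probes is not given in the sources used here.

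From the mean and background intensities, normexp (offset 50), loess within arrays and Aquantile for single-dye levels were computed in limma 3.58.1 under R 4.3.3, with control spots at weight 0 in loess and outlier spots left out (596 of 273280 gene values). A probe was kept where 3 or 4 arrays of some group had it well above background in either dye (25391 of 41174), and the brightest probe stood for a gene. Probes were named by accession (22951), current symbol (6659) or older symbol (3109), and 8455 kept the file's own name. A single limma fit covered all 16 arrays, with Benjamini-Hochberg adjustment over all genes and a threshold of 0.05, and the number of arrays limits its precision. The fitting steps were tested on simulated data. The members and lists were chosen with earlier results of these data known.

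The genes given array by array were, for antigen in IgG-treated cells, the 6 called members with the largest change at each time, and for each anti-TIM-3 comparison the 4 called members with the largest change and 1 sign on all arrays (or no overlap). A clause for members called in opposite directions in any 2 comparisons took in all 41, so it selected nothing. Other genes named are examples of their role. Same-numbered arrays deviated together in Cy3 in 24 of 24 pairs (correlations of 0.115 to 0.679), in Cy5 in 21 of 24, including all 4 pairs at 16 h, and in the ratios in 12 of 24. The block therefore stands beside a single-dye result where it changes it. Alternatives were other background corrections, scalings, filters, probe rules, blocks, array weights and single arrays left out, and, chosen after seeing the data, leaving out 3 arrays on 1 slide with the most spots above background in Cy5.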

Additional observations from a re-analysis of the deposited data

Results flagged for a closer look

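In 2 of 49 groups of 4 values tested, 1 array lay far from the other 3, where chance flags about 1 in 20 groups. Mcm10 was at 9.40 on the log2 Cy3 scale on activated replicate 1 at 2 h, against 9.0, 8.98 and 9.01 on the other arrays. The ratio of Tyms was -0.22 on resting replicate 3 at 16 h, against -0.06, -0.06 and -0.05.

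The anti-TIM-3 ratio differed between activated and resting cells, by the fitted difference, in Gmnn (-0.28), Mcm6 (-0.30) and Dnmt1 (-0.22) at 2 h, and in Uhrf1 (0.60), Tyms (0.53), Chaf1b (0.46) and Tk1 (0.39) at 16 h. At 2 h only these 3 of 41 genes were called, where 5.58% of all genes were. Those calls were fragile, with 0 left without activated replicate 4. The effect of antigen in IgG-treated cells differed between 16 h and 2 h in Mcm7 (1.01), Chaf1a (0.65), Mcm5 (0.64), Mcm10 (0.59), Gins1 (0.54), Pole (0.48) and Brca1 (0.38), each with a fall at both times and the larger one at 2 h. For a dimmer probe of Brca1 this difference was -0.10 and not called.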

How the results depend on the processing

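The counts of called genes for antigen and for time in IgG-treated cells moved by less than 1.5 times under every alternative run. Leaving out 1 array gave 40 to 41 called genes for antigen at 2 h, 31 to 36 at 16 h and 23 to 29 for their difference. For antigen in the anti-TIM-3 dye at 16 h the count was 8 with Agilent's processed signals, 9 without the 3 arrays with most spots above background in Cy5, and 8 to 19 with 1 array left out. For the ratio in resting cells it was 25 (2 h) and 40 (16 h) under median centring, all higher, 2 and 7 with only the compared arrays fitted, and 9 to 15 and 7 to 16 with 1 array left out. In activated cells it was 18 without the 3 arrays at 16 h, and 20 to 23 (2 h) and 26 to 34 (16 h) with 1 array left out. For activated minus resting cells at 2 h it was 5 with Agilent's signals, 5 with the deposited value table, 5 with slide as a block (3 higher, 2 lower), 8 with array weights, 1 with only the compared arrays and 0 to 4 with 1 array left out. At 16 h it was 7 without the 3 arrays and 14 to 19 with 1 array left out. Median centring turned Cdt1 (0.11), Mcm6 (0.32), Mcm7 (0.16) and Rpa2 (0.074) in resting cells at 2 h, Gmnn (0.17) in activated cells at 2 h and Uhrf1 (0.18) in resting cells at 16 h, and the cause was not tested. With replicate number as a block, the count was 18 against 16 for the ratio in resting cells at 2 h, 34 against 31 in activated cells at 16 h, 19 against 18 for activated minus resting cells at 16 h and 23 against 16 for antigen in the anti-TIM-3 dye at 16 h. The replicate block changed the call of none of the genes given array by array. Signal over background limited no member, since all were well above it.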
